A study of Mus musculus with 18 samples.

Results

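The 32 genes described here make serine, glycine, one-carbon units, proline, asparagine and cysteine, carry amino acids into the cell, or belong to the stress response of the transcription factor ATF4, as its regulators or targets. They were chosen as a named list and found by gene symbol, and all 32 were present among the 17267 gene symbols of the series. RNA-seq of 18 libraries from wild-type (WT) mouse primary preadipocytes, the fibroblast-like precursors of fat cells, gave 6 groups of 3 libraries. In the first 12 libraries the cells came from eWAT, a white adipose depot, and were not put through differentiation. Of these, 3 libraries came from control diet (CD) mice with TGF-b1 added to the cells, 3 from CD mice with TGF-b1 and SB431542, 3 from high fat diet (HFD) mice with mock treatment, and 3 from CD mice with mock treatment. TGF-b1 is a cytokine that drives fibroblast activation, and SB431542 inhibits the kinase of its type I receptor. In the other 6 libraries preadipocytes were sorted with an antibody to CD49e, the protein made by the integrin gene Itga5, into Itga5-High and Itga5-Low cells, and both were then put through adipogenic differentiation. The labels give no age, sex, dose or treatment time, no number of animals behind a library, and no group with SB431542 alone, so the p-values cover the scatter among replicate libraries only, and that scatter could be purely technical.

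Serine is made from a glycolysis intermediate by Phgdh, Psat1 and Psph. Serine hydroxymethyltransferases (Shmt1 in the cytosol, Shmt2 in mitochondria) split it into glycine and a carbon carried on folate, and the folate enzymes pass that carbon on to formate, purines and thymidylate. Proline is made from glutamate by Aldh18a1 and Pycr1, and collagen, the main product of activated fibroblasts, is rich in both glycine and proline. ATF4 is made mainly through increased translation of its mRNA when translation initiation is curbed under amino acid shortage or other stress, and it is known to activate most of the genes listed here, often through a CCAAT-enhancer binding protein and ATF composite element in their promoters.

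The total count per library lay between 11154449 and 17288608. Replicates differed from one another by slightly more than counting noise, with chi-square divided by its degrees of freedom of 1.15 to 1.25 over 18 pairs. In the sorted cells Itga5 itself, the gene behind the sort, had 472 ± 8.81 CPM in Itga5-High and 329 ± 4.71 CPM in Itga5-Low libraries (SD, n = 3 each), where CPM is a gene's count scaled to a common library total after TMM normalization. Sums over 10 fibroblast markers were high in every group, and preadipocytes are fibroblast-like cells. In undifferentiated cells they ran from 12590 CPM with TGF-b1 and SB431542 to 27420 CPM in HFD mock cells. In differentiated cells they ran from 50550 CPM in Itga5-Low to 53180 CPM in Itga5-High cells. These sums were mostly collagen mRNA, and single markers could be low, such as Ly6a at 4.4 CPM in TGF-b1 cells and Lum at 5.9 CPM in Itga5-High cells. Marker sums for other cells, given beside each comparison, were not at zero, and in RNA from whole cultures a change in the number of cells of a type and a change in RNA per cell cannot be told apart. Tests below are edgeR's quasi-likelihood test with Benjamini-Hochberg adjustment over all genes tested, two-sided, and a gene is said to rise or fall where the adjusted p is under 0.05. Fold changes are log2 fold changes ± SE. All 32 genes passed the filter on low counts in both fits.

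The 32 genes span a wide range of levels per transcript length, given here as TPM, each transcript count divided by its length and scaled to the same total in every library. Atf4 ranked first in the 4 undifferentiated groups, with 431 ± 9.65 TPM in TGF-b1 cells, 325 ± 10.9 TPM in TGF-b1 with SB431542 cells, 407 ± 11.8 TPM in HFD mock cells and 394 ± 1.89 TPM in CD mock cells (SD, n = 3 each). In CD mock cells the next places went to Got2 at 219 ± 4.06 TPM, Phgdh at 214 ± 0.987 TPM and Psat1 at 212 ± 5.01 TPM, and these neighbours did not differ beyond their spread. In TGF-b1 cells Psat1 at 306 ± 4.59 TPM and Phgdh at 292 ± 5.28 TPM followed Atf4, and Shmt2 at 220.2 ± 5.91 TPM came next. In the differentiated cells the neutral amino acid and glutamine carrier Slc1a5 ranked first, at 383 ± 4.44 TPM in Itga5-High and 596 ± 3.29 TPM in Itga5-Low cells, ahead of Atf4 at 351 ± 1.65 TPM in Itga5-High and 289 ± 8.75 TPM in Itga5-Low cells. Cbs, the first enzyme of transsulfuration, was last in all 6 groups, at most 2.21 ± 0.409 TPM in TGF-b1 with SB431542 cells. The cystine carrier Slc7a11 stood second from last in all 6 groups, at most 5.80 ± 0.771 TPM in TGF-b1 cells. The values that follow for Cbs rest on fewer than 10 counts a library in TGF-b1 and CD mock cells.

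Promoter sequences are shown for the 6 genes with the largest TGF-b1 changes, in either direction, among members that hold an ATF4-type element. Chac1 is the gene among these 6 that fell with TGF-b1, and a part of the element in the changes was not tested. The search was for TGATGNAA, a core of the composite element, on both strands, in windows from 250 bases before to 50 bases after each annotated start (RefSeq, GRCm38.p6). Each sequence is written 5' to 3' on the gene's strand, in lower case, with the match in capitals.
Trib3: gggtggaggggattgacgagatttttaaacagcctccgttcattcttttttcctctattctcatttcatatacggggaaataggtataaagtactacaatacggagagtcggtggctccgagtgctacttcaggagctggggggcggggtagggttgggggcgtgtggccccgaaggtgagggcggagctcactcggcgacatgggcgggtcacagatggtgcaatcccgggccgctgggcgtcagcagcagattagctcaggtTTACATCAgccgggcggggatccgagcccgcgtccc
Chac1: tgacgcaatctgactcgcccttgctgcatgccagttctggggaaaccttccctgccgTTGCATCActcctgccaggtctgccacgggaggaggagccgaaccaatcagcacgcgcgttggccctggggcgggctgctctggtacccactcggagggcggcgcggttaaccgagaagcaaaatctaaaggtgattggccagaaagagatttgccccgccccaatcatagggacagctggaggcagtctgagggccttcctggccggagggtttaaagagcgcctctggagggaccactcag
Nupr1: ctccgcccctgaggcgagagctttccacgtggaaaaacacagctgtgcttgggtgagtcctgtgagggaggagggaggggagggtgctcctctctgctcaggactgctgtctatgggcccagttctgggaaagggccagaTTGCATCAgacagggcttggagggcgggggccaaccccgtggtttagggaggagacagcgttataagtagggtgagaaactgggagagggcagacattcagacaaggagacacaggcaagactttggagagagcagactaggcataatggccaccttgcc
Slc1a4: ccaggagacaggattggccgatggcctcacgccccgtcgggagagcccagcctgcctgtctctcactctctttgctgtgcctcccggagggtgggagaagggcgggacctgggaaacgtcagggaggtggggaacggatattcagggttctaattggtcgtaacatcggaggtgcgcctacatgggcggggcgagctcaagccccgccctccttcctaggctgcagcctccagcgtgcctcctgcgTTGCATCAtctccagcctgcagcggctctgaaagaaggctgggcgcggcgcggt
Slc7a11: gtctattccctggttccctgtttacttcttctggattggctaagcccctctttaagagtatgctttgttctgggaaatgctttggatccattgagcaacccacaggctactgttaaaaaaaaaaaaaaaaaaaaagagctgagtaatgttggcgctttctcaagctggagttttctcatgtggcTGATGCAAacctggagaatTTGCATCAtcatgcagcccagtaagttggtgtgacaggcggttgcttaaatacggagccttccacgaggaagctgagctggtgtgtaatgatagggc
Pycr1: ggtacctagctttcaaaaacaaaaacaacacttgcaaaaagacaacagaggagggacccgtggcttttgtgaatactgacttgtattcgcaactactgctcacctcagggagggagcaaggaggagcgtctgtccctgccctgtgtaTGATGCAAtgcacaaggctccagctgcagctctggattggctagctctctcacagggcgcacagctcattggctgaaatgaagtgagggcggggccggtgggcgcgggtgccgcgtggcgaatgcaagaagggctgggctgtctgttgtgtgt
These windows lie at chr2:152344011-152344310 on the minus strand for Trib3, chr2:119350992-119351291 on the plus strand for Chac1, chr7:126625421-126625720 on the minus strand for Nupr1, chr11:20332664-20332963 on the minus strand for Slc1a4, chr3:50443564-50443863 on the minus strand for Slc7a11 and chr11:120643699-120643998 on the minus strand for Pycr1. Slc7a11 holds the element on both strands, at 66 and 47 bases before its start, each as the first base of the match. Trib3 differs from the others in that its match, which begins at base 15, lies past the start. Promoters of 28 of the 32 genes were found in the table, and 9 of these, or 32.1%, held a match, against 1219 of 27025 genes, or 4.51%, over the whole table. The other 3 genes with a match were Asns, Got1 and Vldlr. The list was chosen to hold known ATF4 targets, so a share above that of all genes could follow from the choice alone and was not tested. A match is a string of letters and not a site shown to be bound, and the absence of a match says only that these letters are not in the window.

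TGF-b1 raised most of the 32 genes. Of the 32, 23 rose, 7 fell and 2 were not called in TGF-b1 against mock cells, while over all 14078 genes tested 33.5% were called higher and 34.3% lower. The median log2 fold change was 0.64 over the 32 genes and -0.017 over all genes. With libraries scaled by total counts the median of all genes moved to -0.16 and the share of calls that were higher, 49.4%, became 31.4%, and 21 of the 32 genes were then called higher and 9 lower. Every TGF-b1 library lay on one side of every mock library for 31 of the 32 genes, and for 69.4% of all genes. Changes of at least 1 log2 unit were found in 4 of the 32 genes upward and 2 downward, and in 3.59% of all genes upward and 11.2% downward. Since the members were picked with results of these data known, their share is a description.

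**Figure D1:**
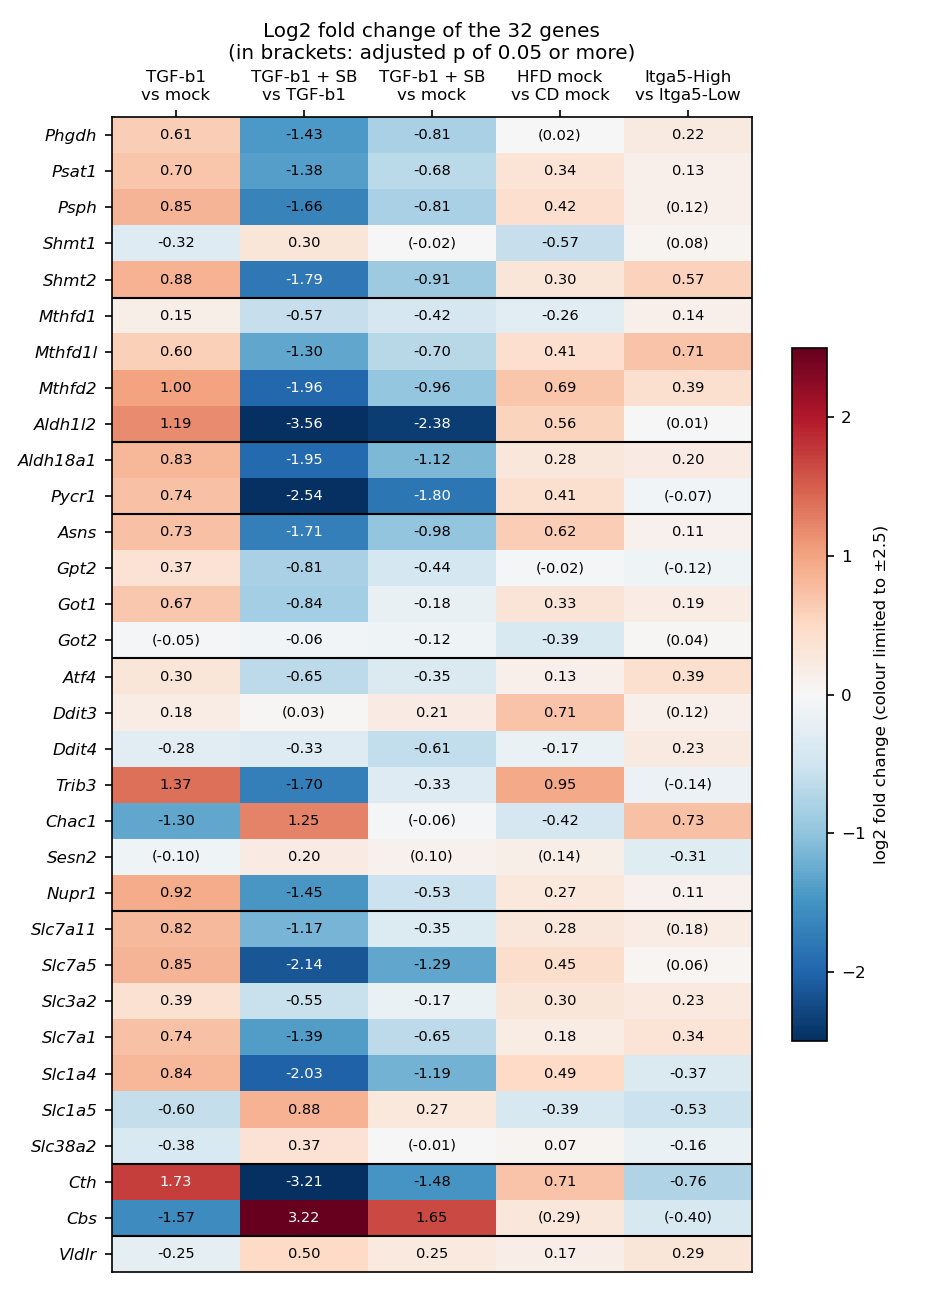
Log2 fold changes of the 32 genes (rows, by role) in the 5 comparisons (columns), from red for higher to blue for lower in the group named first, with values in brackets where the adjusted p was 0.05 or above. The column of TGF-b1 against mock is mostly red, with 23 genes higher, and that of TGF-b1 with SB431542 against TGF-b1 mostly blue, with 24 genes lower.

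The 3 enzymes of serine synthesis all rose with TGF-b1. Phgdh, phosphoglycerate dehydrogenase, which takes the first step, had 240.4, 248 and 242 CPM in TGF-b1 libraries and 160.1, 159 and 158 CPM in mock libraries. All 3 TGF-b1 libraries lay above all 3 mock libraries, and the log2 fold change was 0.61 ± 0.025 (adjusted p = 4.3e-31). Psat1, the phosphoserine aminotransferase of the next step, had 302, 295 and 295 CPM in TGF-b1 libraries and 179, 183 and 187 CPM in mock libraries, a log2 fold change of 0.70 ± 0.022 with no overlap of the groups (adjusted p = 1.07e-36). Psph, the phosphatase of the last step, averaged 58.1 ± 1.97 CPM in TGF-b1 cells and 32.2 ± 1.08 CPM in mock cells (SD, n = 3 each), and its change of 0.85 ± 0.056 was the largest of the 3. Annotated exons of Psph overlap those of Cct6a on the opposite strand by 452 bases, and use of strand in the counting is not known.

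The mitochondrial and cytosolic arms of folate metabolism moved apart. Shmt2, the mitochondrial serine hydroxymethyltransferase, had 230.3, 219 and 229.6 CPM in TGF-b1 libraries and 124, 122 and 125 CPM in mock libraries, with a log2 fold change of 0.88 ± 0.028 (adjusted p = 3.32e-37). Its cytosolic counterpart Shmt1 had 11, 13.8 and 12.2 CPM in TGF-b1 libraries and 15.6, 15.9 and 14.5 CPM in mock libraries, a fall of 1.25-fold (log2 fold change -0.32 ± 0.093, adjusted p = 0.00202). Both pairs of groups were free of overlap, in opposite directions.

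The further mitochondrial enzymes followed Shmt2. Mthfd2, a dehydrogenase and cyclohydrolase that oxidizes the carbon on folate, had 169, 159 and 169 CPM in TGF-b1 libraries and 82.96, 85.4 and 79.7 CPM in mock libraries, 2.0-fold higher (log2 fold change 1.0 ± 0.033, adjusted p = 6.57e-36). Aldh1l2, which oxidizes formyl-folate to carbon dioxide in mitochondria, had 221, 219.7 and 228 CPM in TGF-b1 libraries and 102, 98.1 and 93.8 CPM in mock libraries, 2.28-fold higher (log2 fold change 1.19 ± 0.031, adjusted p = 7.42e-42). Its annotated exons overlap those of D10Wsu102e on the opposite strand by 1056 bases, and whether the counting used strand is not given in the sources used here. Opposite-strand overlaps also exist for Got2 with Gm45760 (379 bases) and Shmt1 with Smcr8 (184 bases), and shorter ones for some other members. Mthfd1l, which releases formate, averaged 57.6 ± 1.06 CPM in TGF-b1 cells and 38.1 ± 0.490 CPM in mock cells (log2 fold change 0.60 ± 0.050). The cytosolic trifunctional enzyme Mthfd1 averaged 88.5 ± 2.81 CPM in TGF-b1 cells and 79.9 ± 0.662 CPM in mock cells, a change of 0.15 ± 0.037 that was called here but not with total-count scaling (adjusted p = 0.993). Aldh1l1, the cytosolic counterpart of Aldh1l2 and not among the 32 genes, fell 2.41-fold, with 13.2 against 31.8 CPM in TGF-b1 against mock cells (adjusted p = 4.62e-23). In each case the mitochondrial enzyme had a higher log2 fold change than its cytosolic counterpart, a difference that was not tested.

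**Figure D2:**
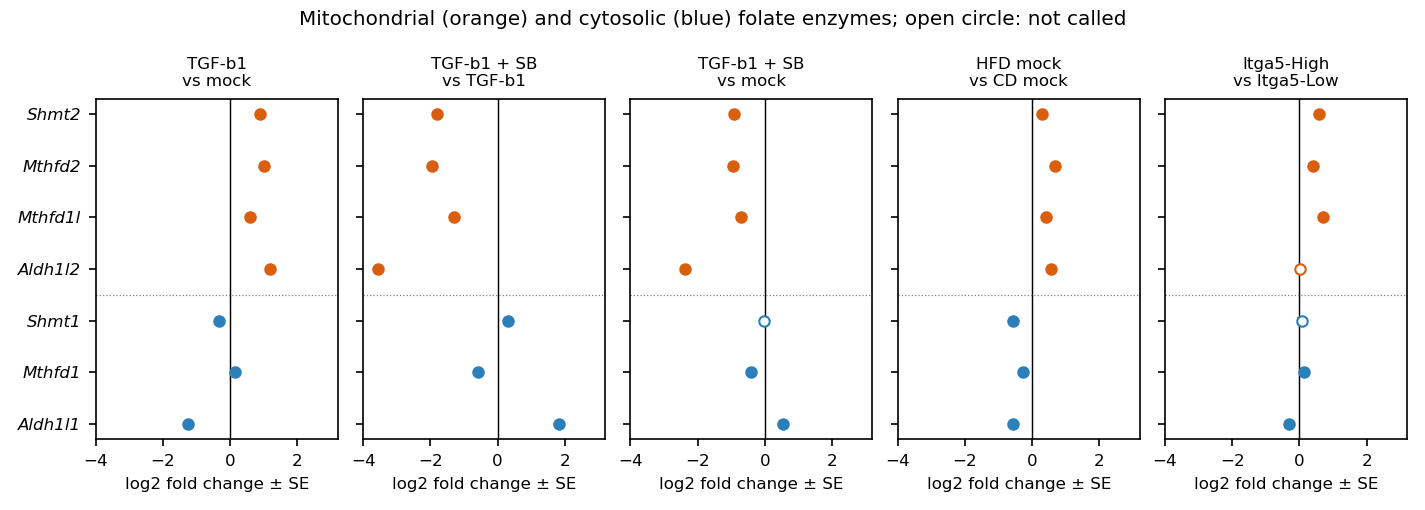
Log2 fold change ± SE (horizontal axis) of the mitochondrial folate enzymes (orange: Shmt2, Mthfd2, Mthfd1l, Aldh1l2) and the cytosolic ones (blue: Shmt1, Mthfd1, Aldh1l1), with 1 panel for each of the 5 comparisons and open symbols where the test was not passed; most error bars are smaller than the symbols. In TGF-b1 against mock the orange symbols lie between 0.60 and 1.19 and the blue ones between -1.27 and 0.15.

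Both genes of proline synthesis rose. Aldh18a1, the bifunctional enzyme that makes the proline precursor from glutamate, had 224, 216 and 226 CPM in TGF-b1 libraries and 120.3, 123 and 132 CPM in mock libraries, 1.77-fold higher (log2 fold change 0.83 ± 0.028, adjusted p = 1.61e-35). Pycr1, the mitochondrial reductase of the last step, had 29.9, 30.4 and 32.2 CPM in TGF-b1 libraries and 17.6, 18.2 and 19.8 CPM in mock libraries, 1.67-fold higher (adjusted p = 7.92e-14). Pycr1 counts are divided over 6 transcripts, and its largest transcript alone gave a log2 fold change of 0.72 with an adjusted p of 0.0813.

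Asparagine synthetase and the transaminases rose except for Got2. Asns had 181, 182 and 184 CPM in TGF-b1 libraries and 111, 105 and 116 CPM in mock libraries (log2 fold change 0.73 ± 0.031, adjusted p = 2.21e-30). The cytosolic aspartate transaminase Got1 rose by 0.67 ± 0.038 and the alanine transaminase Gpt2 by 0.37 ± 0.065 on the log2 scale. The mitochondrial aspartate transaminase Got2 averaged 199 ± 0.757 CPM in TGF-b1 cells and 207 ± 4.06 CPM in mock cells, and its change of -0.054 ± 0.025 was not called (adjusted p = 0.0558). It was called lower with total-count scaling (-0.20, adjusted p = 2.35e-10), in a fit of only the 2 groups compared (-0.063, adjusted p = 0.0189) and without CD mock replicate 2 (-0.067, adjusted p = 0.0377).

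ATF4 and the stress regulators split. Atf4 mRNA had 291, 292 and 303 CPM in TGF-b1 libraries and 239.7, 240 and 242 CPM in mock libraries, a rise of 1.23-fold (log2 fold change 0.30 ± 0.023, adjusted p = 3.04e-18). Trib3, a pseudokinase that is itself a target and a feedback inhibitor of ATF4, had 32.7, 28.6 and 31.1 CPM in TGF-b1 libraries and 12.6, 12.4 and 10.7 CPM in mock libraries, 2.58-fold higher (adjusted p = 2.71e-23). Nupr1, a small stress-induced chromatin protein, averaged 49.7 ± 1.64 CPM in TGF-b1 cells and 26.4 ± 0.777 CPM in mock cells (1.89-fold higher). Chac1, a glutathione-degrading enzyme induced by ATF4 and CHOP, went the other way, with 6.82, 7.27 and 6.88 CPM in TGF-b1 libraries and 17.5, 17.2 and 16.96 CPM in mock libraries, 2.46-fold lower (log2 fold change -1.30 ± 0.11, adjusted p = 7.8e-17). Trib3 and Chac1 thus changed by similar amounts in opposite directions, and both promoters shown above hold the element.

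Ddit4, which curbs the growth kinase mTORC1 under stress, averaged 61 ± 2.02 CPM in TGF-b1 cells and 74.2 ± 1.99 CPM in mock cells and fell (log2 fold change -0.28 ± 0.042). Sesn2, another inhibitor of mTORC1, averaged 21.1 ± 1.79 CPM in TGF-b1 cells and 22.3 ± 1.41 CPM in mock cells, with overlapping libraries and no call (adjusted p = 0.237), except with total-count scaling, where it was lower (-0.25, adjusted p = 0.0029). Ddit3, which encodes CHOP, a pro-apoptotic partner of ATF4, averaged 28.02 ± 2.35 CPM in TGF-b1 cells and 24.9 ± 0.513 CPM in mock cells, called higher (log2 fold change 0.18 ± 0.069, adjusted p = 0.017). That call was lost without TGF-b1 replicate 3 (adjusted p = 0.183), without CD mock replicate 1 (adjusted p = 0.0508) and with total-count scaling (adjusted p = 0.68), and the largest transcript alone gave -0.024.

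Among the carriers, those of large neutral and cationic amino acids and cystine rose, and Slc1a5 and Slc38a2, which take up glutamine, fell. Slc7a5, the light chain of the large neutral amino acid exchanger, had 257, 266 and 248 CPM in TGF-b1 libraries and 139.9, 142 and 145 CPM in mock libraries (log2 fold change 0.85 ± 0.026, adjusted p = 5.07e-38). Slc3a2, the heavy chain that it shares with Slc7a11, rose less, with a log2 fold change of 0.39 ± 0.026. Slc7a11, the cystine and glutamate exchanger, rose by 0.82 ± 0.087, the arginine and lysine carrier Slc7a1 by 0.74 ± 0.027, and the alanine and serine carrier Slc1a4 by 0.84 ± 0.055. Slc1a5 had 142, 144 and 146 CPM in TGF-b1 libraries and 223, 217 and 218 CPM in mock libraries, 1.52-fold lower (adjusted p = 2.32e-31). Slc38a2, a sodium-coupled neutral amino acid carrier, averaged 271 ± 6.16 CPM in TGF-b1 cells and 353 ± 10.2 CPM in mock cells and fell (log2 fold change -0.38 ± 0.021).

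The transsulfuration enzymes, which turn homocysteine and serine into cysteine, parted. Cth, the enzyme that releases cysteine, had 18.9, 18.5 and 19.6 CPM in TGF-b1 libraries and 5.71, 5.66 and 5.91 CPM in mock libraries, 3.31-fold higher and the largest rise among the 32 genes (log2 fold change 1.73 ± 0.11, adjusted p = 2.21e-22). Cbs, the step before it, had 3, 2 and 3 counts in TGF-b1 libraries and 7, 9 and 8 counts in mock libraries, called lower (adjusted p = 0.0107), and with the largest of its 3 transcripts alone it was not called (adjusted p = 0.988). Vldlr, the very low density lipoprotein receptor and a known ATF4 target, averaged 34.5 ± 2.10 CPM in TGF-b1 cells and 41.1 ± 0.321 CPM in mock cells and fell (log2 fold change -0.25 ± 0.056, adjusted p = 0.000103).

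**Figure D3:**
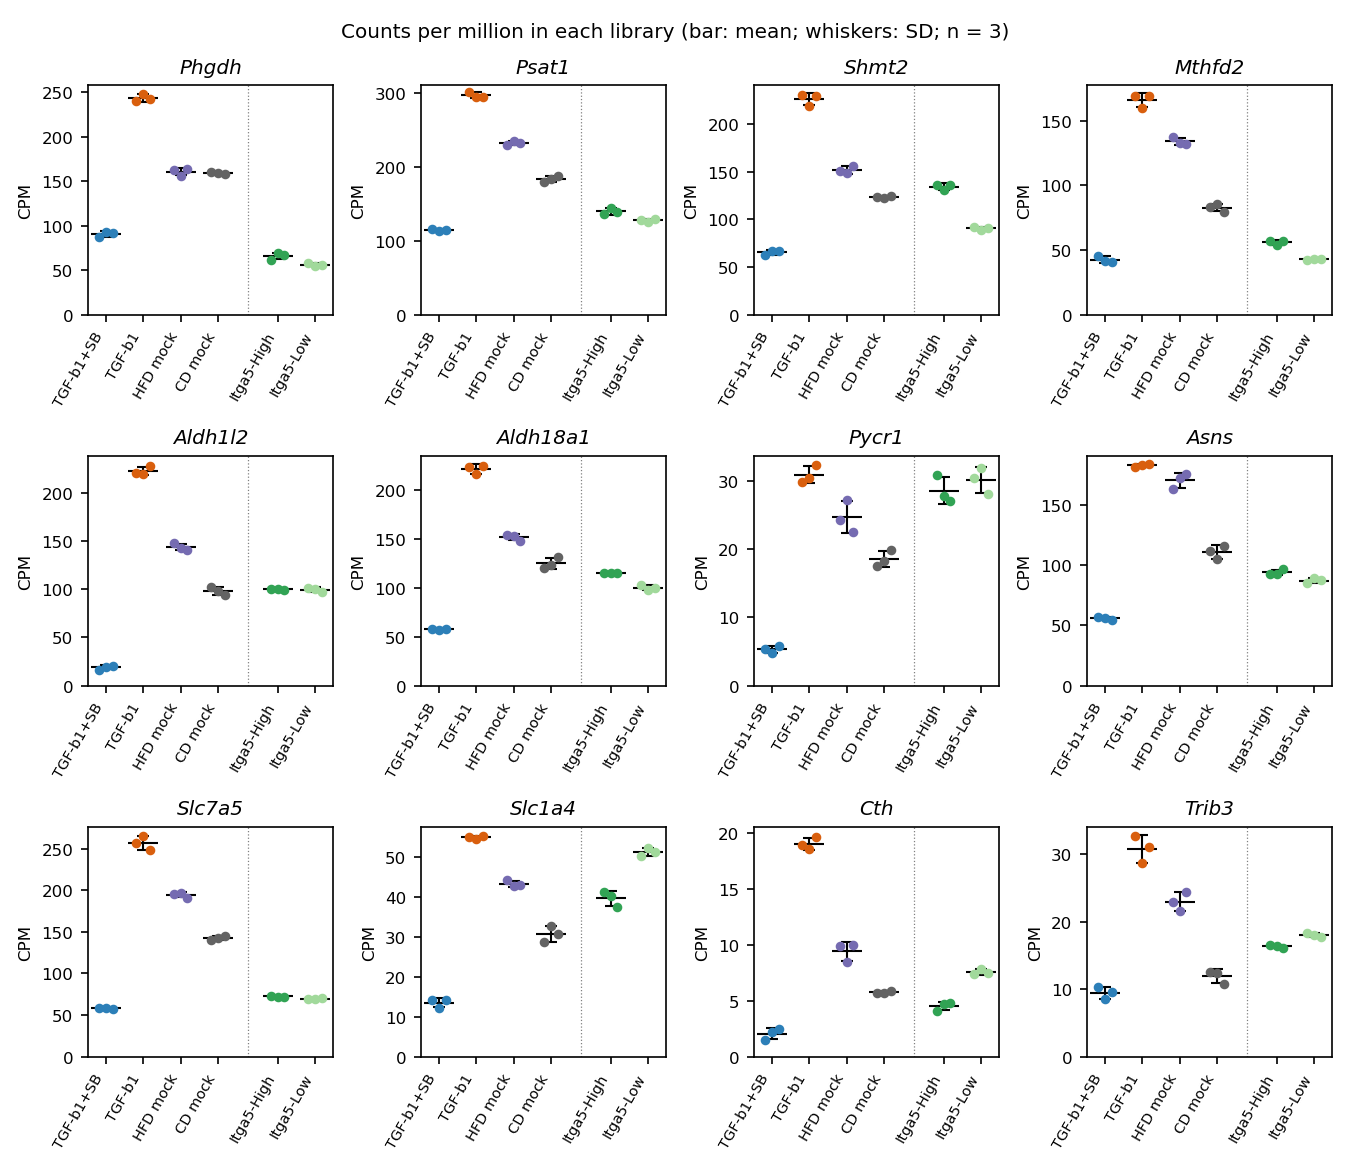
CPM (vertical axis, from 0) of 12 genes in each of the 18 libraries (points) with group means (horizontal bars) and SD (whiskers), for TGF-b1 with SB431542, TGF-b1, HFD mock and CD mock cells, and, right of the line, Itga5-High and Itga5-Low cells. In each of the 12 panels all 3 TGF-b1 libraries lie above the CD mock libraries and all 3 TGF-b1 with SB431542 libraries lie below them.

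Other cells' markers moved with TGF-b1 too. The summed level of 9 adipocyte markers was 212 to 221 CPM in TGF-b1 libraries and 1313 to 1337 CPM in mock libraries, all 9 markers fell, and Retn was at 0 in all TGF-b1 libraries. Mesothelial markers summed to 690 to 706 CPM in TGF-b1 libraries and 2536 to 2569 CPM in mock libraries, with 9 of 10 lower. Endothelial markers summed to 177 to 181 CPM in TGF-b1 libraries and 390 to 408 CPM in mock libraries, with 8 of 9 lower and 1 higher. Macrophage markers summed to 702 to 723 CPM in TGF-b1 libraries and 637 to 653 CPM in mock libraries, with 4 of 14 higher and 4 lower. Over all genes 33.5% were called higher and 34.3% lower in this comparison. Cell cycle markers summed to 1059 to 1072 CPM in TGF-b1 libraries and 1263 to 1273 CPM in mock libraries, with 8 of 10 lower. The part of these markers in the results above was not tested.

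With SB431542 added to TGF-b1, 24 of the 32 genes fell, 7 rose and 1 was not called, against 38.2% of all genes called lower and 41.5% higher. The median log2 fold change was -1.23 over the 32 genes and 0.037 over all genes, and 17 of the 32 fell by at least 1 log2 unit, as 7.66% of all genes did, while 2 rose by that much, as 18% of all genes did. With total-count scaling the median of all genes became 0.29, the share of calls that were higher, 52.1%, became 70.1%, and 22 of the 32 genes were still called lower and 9 higher. The libraries did not overlap for 30 of the 32 genes and for 80.2% of all genes. This comparison shares its TGF-b1 libraries with the one above, and the comparison with mock cells shares its mock libraries with both the TGF-b1 and the diet comparison, so opposite signs between them are not independent of each other. The values against mock cells are therefore given beside those against TGF-b1 cells.

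Aldh1l2 fell the most. It had 16.5, 19.7 and 20.4 CPM in TGF-b1 with SB431542 libraries, against 221, 219.7 and 228 CPM in TGF-b1 libraries, 11.8-fold lower (log2 fold change -3.56 ± 0.043, adjusted p = 1.8e-60), and it was also 5.19-fold below mock cells (log2 fold change -2.38 ± 0.052). Mthfd2 had 45.6, 41.1 and 41.04 CPM in TGF-b1 with SB431542 libraries, 3.89-fold below TGF-b1 and 1.94-fold below mock cells. Shmt2 had 62.7, 66.9 and 67.01 CPM in TGF-b1 with SB431542 libraries, 3.46-fold below TGF-b1 and 1.88-fold below mock cells. These 3 mitochondrial enzymes were thus lowest, among the 4 undifferentiated groups, in the cells that received the inhibitor. Mthfd1l and Mthfd1 fell too, with log2 fold changes against TGF-b1 cells of -1.30 ± 0.055 and -0.57 ± 0.039, and against mock cells of -0.70 ± 0.060 and -0.42 ± 0.040. Shmt1 rose against TGF-b1 cells (log2 fold change 0.30 ± 0.092, adjusted p = 0.00236), while against mock cells it was not called (-0.017 ± 0.087, adjusted p = 0.874). Aldh1l1 had 46.8 against 13.2 CPM in TGF-b1 with SB431542 against TGF-b1 cells, 3.53-fold higher (adjusted p = 2.18e-33).

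The serine and proline enzymes fell below mock as well. Phgdh had 86.8, 92.8 and 92.3 CPM in TGF-b1 with SB431542 libraries, with log2 fold changes of -1.43 ± 0.028 against TGF-b1 cells (adjusted p = 6.14e-49) and -0.81 ± 0.031 against mock cells (adjusted p = 5.92e-33). Psat1 had 116, 113 and 114 CPM in TGF-b1 with SB431542 libraries, with log2 fold changes of -1.38 ± 0.024 against TGF-b1 cells and -0.68 ± 0.027 against mock cells. All 3 inhibitor libraries of both genes lay below all mock libraries. Psph had log2 fold changes of -1.66 ± 0.062 and -0.81 ± 0.071 in the same order. Aldh18a1 had 58.5, 56.7 and 57.9 CPM in TGF-b1 with SB431542 libraries, 3.85-fold below TGF-b1 and 2.17-fold below mock cells. Pycr1 had 5.41, 4.78 and 5.76 CPM in TGF-b1 with SB431542 libraries, 5.81-fold below TGF-b1 (adjusted p = 1.28e-33) and 3.48-fold below mock cells (adjusted p = 5.68e-23). The last step of proline synthesis thus changed more than the first on the log2 scale in both comparisons, although the difference itself was not tested.

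Asns had 57.04, 56.3 and 54.6 CPM in TGF-b1 with SB431542 libraries, with log2 fold changes of -1.71 ± 0.035 against TGF-b1 and -0.98 ± 0.039 against mock cells. Gpt2 changed by -0.81 ± 0.068 and -0.44 ± 0.072 in the same order, and Got1 by -0.84 ± 0.039 and -0.18 ± 0.043. Got2 changed little, by -0.061 ± 0.025 against TGF-b1 cells with overlapping libraries (adjusted p = 0.0242). That call was lost without TGF-b1 with SB431542 replicate 1 (adjusted p = 0.319) or replicate 3 (adjusted p = 0.104). It was also lost in the fit on every gene's largest transcript (adjusted p = 0.242), although Got2 has only 1 transcript, so its own counts were unchanged. Total-count scaling turned the call to a higher one (0.20, adjusted p = 3.2e-10). Got2 had a log2 fold change of -0.12 ± 0.025 against mock cells. Against mock cells the calls of Got1 and Got2 were lost with total-count scaling (adjusted p = 0.156 for Got1 and 0.857 for Got2).

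Atf4 mRNA had 192, 192 and 181 CPM in TGF-b1 with SB431542 libraries, 1.57-fold below TGF-b1 and 1.28-fold below mock cells (log2 fold changes -0.65 ± 0.024 and -0.35 ± 0.025), a smaller fall against TGF-b1 cells than the median of the 32 genes. Trib3 had 10.3, 8.53 and 9.61 CPM in TGF-b1 with SB431542 libraries, with log2 fold changes of -1.70 ± 0.083 against TGF-b1 cells and -0.33 ± 0.10 against mock cells, the second not called with total-count scaling (adjusted p = 0.0568). Nupr1 changed by -1.45 ± 0.061 against TGF-b1 and -0.53 ± 0.071 against mock cells. Chac1 had 15, 18.8 and 15.8 CPM in TGF-b1 with SB431542 libraries, 2.37-fold above TGF-b1 cells (adjusted p = 1.95e-16), and its libraries overlapped those of mock cells (log2 fold change -0.056 ± 0.087, adjusted p = 0.596). Chac1 thus ran opposite to Trib3: its 3 libraries in TGF-b1 cells were the lowest of the 12, while those of Trib3 were the highest. Ddit3 was not called against TGF-b1 cells (0.028 ± 0.065, adjusted p = 0.697), except with total-count scaling, where it was higher (0.28, adjusted p = 7.51e-05), and it was called higher than mock cells (0.21 ± 0.067), a call lost with its largest transcript alone (adjusted p = 0.29). Sesn2 was called higher than in TGF-b1 cells (0.20 ± 0.072, adjusted p = 0.00973), and the call was lost without TGF-b1 replicate 3 (adjusted p = 0.155) and in DESeq2's Wald test (adjusted p = 0.0588). Against mock cells Sesn2 was not called (0.10 ± 0.072, adjusted p = 0.218), except with total-count scaling, where it was higher (0.21, adjusted p = 0.00856). Ddit4 fell against both TGF-b1 (-0.33 ± 0.045) and mock cells (-0.61 ± 0.043), the first not called with total-count scaling (adjusted p = 0.14).

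Among the carriers, Slc7a5 had 57.98, 58.6 and 57.6 CPM in TGF-b1 with SB431542 libraries, 4.42-fold below TGF-b1 and 2.45-fold below mock cells. Slc1a4 fell as well, with log2 fold changes of -2.03 ± 0.065 and -1.19 ± 0.074 in the same order. Those of Slc7a1 were -1.39 ± 0.029 and -0.65 ± 0.033, and those of Slc7a11 -1.17 ± 0.090 and -0.35 ± 0.10. Slc3a2 changed by -0.55 ± 0.026 and -0.17 ± 0.028, the second not called with total-count scaling (adjusted p = 0.0694). Slc1a5 had 266, 263 and 265 CPM in TGF-b1 with SB431542 libraries, 1.84-fold above TGF-b1 and 1.21-fold above mock cells (adjusted p = 1.6e-41 and 2.06e-17). Slc1a5 thus ran opposite to its relative Slc1a4 in both. Slc38a2 rose against TGF-b1 cells (0.37 ± 0.020), and its libraries overlapped those of mock cells (-0.0090 ± 0.019, adjusted p = 0.724). Against mock cells Slc38a2 was called higher with total-count scaling (0.10, adjusted p = 7.57e-06) and lower with its largest transcript alone (-0.12, adjusted p = 0.0295).

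Cth had 21, 30 and 32 counts in TGF-b1 with SB431542 libraries, against 222, 209 and 291 counts in TGF-b1 libraries, and was 9.26-fold lower in CPM (adjusted p = 1.36e-31). Against mock cells Cth was 2.80-fold lower (adjusted p = 3.44e-11). Cbs had 24, 27 and 32 counts in TGF-b1 with SB431542 libraries, against 3, 2 and 3 counts in TGF-b1 libraries, with an adjusted p of 4.39e-10. Cbs was also called higher than in mock cells, which had 7, 9 and 8 counts (adjusted p = 1.35e-05). At such counts the size of its fold change is uncertain. The 2 transsulfuration genes thus moved in opposite directions in both comparisons. Vldlr averaged 48.9 ± 1.41 CPM in TGF-b1 with SB431542 cells and 34.5 ± 2.10 CPM in TGF-b1 cells, a rise of 0.50 ± 0.053 (adjusted p = 6.87e-13). Against mock cells Vldlr was called higher (0.25 ± 0.051), and with its largest transcript alone it was not (0.016, adjusted p = 0.935).

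**Figure D4:**
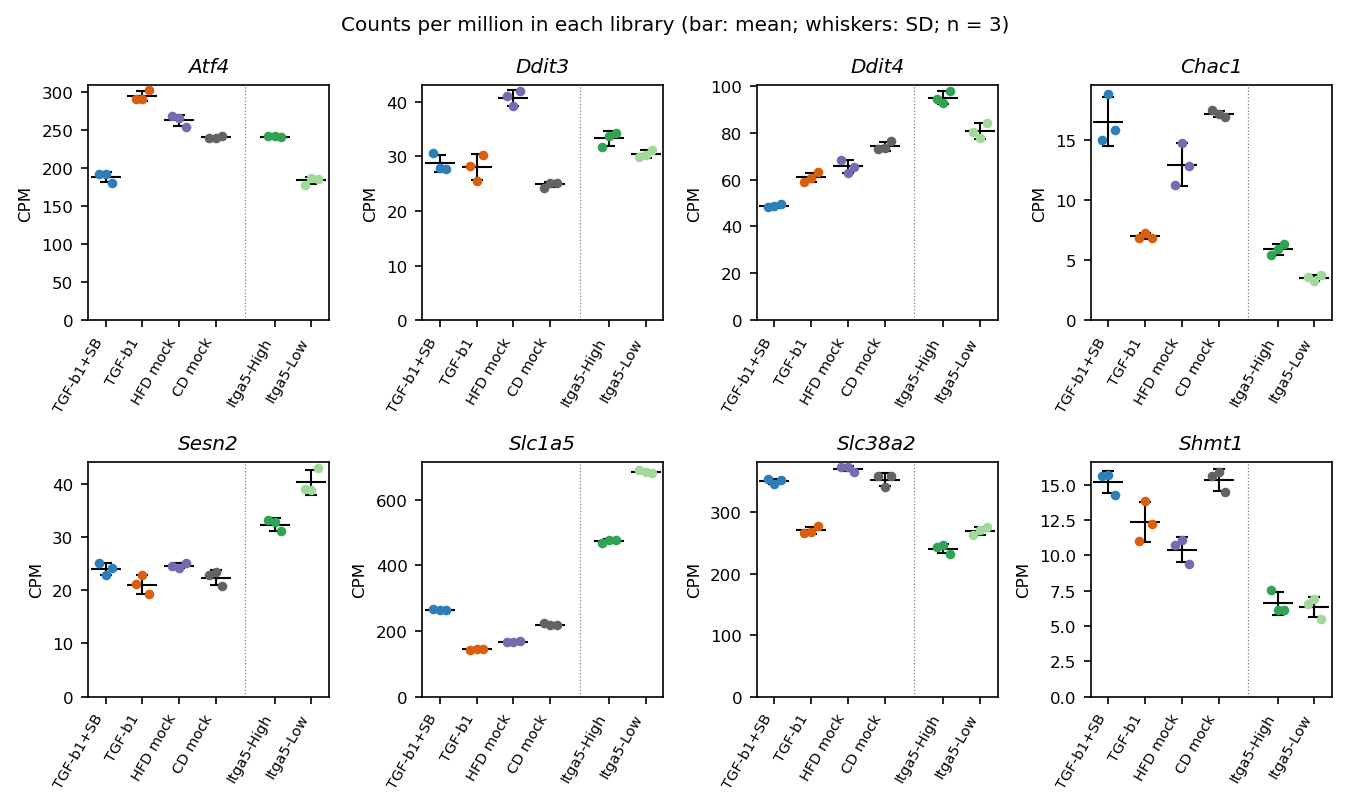
CPM (vertical axis, from 0) of 8 genes in each of the 18 libraries (points) with group means (horizontal bars) and SD (whiskers). The groups are TGF-b1 with SB431542, TGF-b1, HFD mock and CD mock cells, and, right of the line, Itga5-High and Itga5-Low cells. Slc1a5 and Chac1 are lowest in TGF-b1 cells among the 4 undifferentiated groups, and Ddit3 is highest in HFD mock cells.

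Against mock cells as a whole, TGF-b1 with SB431542 left 24 of the 32 genes lower, 4 higher and 4 not called, against 30.5% of all genes lower and 30.7% higher, with a median of -0.49 over the 32 genes and 0.0063 over all genes. The share of calls that were higher, 50.2%, became 67.6% with total-count scaling, with 20 of the 32 genes then lower and 6 higher. The libraries of 28 of the 32 genes did not overlap, as for 64% of all genes, and 6 genes were lower and 1 higher by at least 1 log2 unit, as were 2.83% and 7.82% of all genes. Markers of other cells changed with the inhibitor too: 9 adipocyte markers summed to 4015 to 4056 CPM in TGF-b1 with SB431542 libraries, against 212 to 221 CPM in TGF-b1 and 1313 to 1337 CPM in mock libraries, and all 9 rose in both comparisons. Macrophage markers summed to 1273 to 1309 CPM in TGF-b1 with SB431542 libraries, with 13 of 14 above TGF-b1 and 1 below, and all 14 above mock cells. Endothelial markers summed to 858 to 877 CPM in TGF-b1 with SB431542 libraries, with 8 of 9 above TGF-b1 and 7 of 9 above mock cells. Mesothelial markers summed to 2298 to 2303 CPM in TGF-b1 with SB431542 libraries, with 8 of 10 above TGF-b1 cells, and 2 of 10 above and 6 below mock cells. Cell cycle markers summed to 1206 to 1222 CPM in TGF-b1 with SB431542, 1059 to 1072 CPM in TGF-b1 and 1263 to 1273 CPM in mock libraries. Single ones went both ways: with SB431542 added to TGF-b1, Mki67 averaged 272.5 against 221.3 CPM, and Ccnb1 61.1 against 72.0 CPM. The fibroblast marker sum was 12590 to 12720 CPM in TGF-b1 with SB431542 libraries, 26720 to 26790 CPM in TGF-b1 libraries and 23560 to 23680 CPM in mock libraries. That sum is mostly collagen mRNA, and single markers differed from it: 7 of the 10 were higher and 3 lower in TGF-b1 with SB431542 than in TGF-b1 cells, 3 were higher and 7 lower in TGF-b1 than in mock cells, and 4 were higher and 6 lower in TGF-b1 with SB431542 than in mock cells, which with total-count scaling became 5 higher and 3 lower. Col1a1 averaged 2067 CPM in TGF-b1 with SB431542, 14770 CPM in TGF-b1 and 8930 CPM in mock cells, while Dcn, the proteoglycan decorin, averaged 1678, 165 and 978 CPM in the same order. The part of these in the lower levels of the 32 genes was not tested.

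In preadipocytes of HFD mice most of the 32 genes were higher than in those of CD mice, by smaller amounts. Of the 32, 22 rose, 6 fell and 4 were not called, against 27.2% of all genes called higher and 26.8% lower, and the median was 0.28 over the 32 genes and -0.0077 over all genes. None of the 32 genes changed by 1 log2 unit or more, as 4.35% of all genes did upward and 7.33% downward. With total-count scaling the median of all genes became -0.091 and the share of calls that were higher, 50.4%, became 33.6%, with 18 of the 32 genes then called higher and 7 lower. The libraries did not overlap for 29 of the 32 genes and for 58% of all genes.

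Phgdh, the entry to serine synthesis, was not called, with 162, 156 and 164 CPM in HFD libraries and 160.1, 159 and 158 CPM in CD libraries (log2 fold change 0.017 ± 0.027, adjusted p = 0.62). With total-count scaling it was called lower (-0.066, adjusted p = 0.0322). The later steps Psat1 and Psph were called higher. Psat1 had 230.2, 235 and 233 CPM in HFD libraries and 179, 183 and 187 CPM in CD libraries (log2 fold change 0.34 ± 0.023, adjusted p = 2.38e-20). Psph rose by 0.42 ± 0.059. The mitochondrial folate enzymes rose again: Mthfd2 had 137, 132 and 132 CPM in HFD libraries and 82.96, 85.4 and 79.7 CPM in CD libraries, 1.62-fold higher (adjusted p = 1.08e-26). Aldh1l2 had 148, 143 and 141 CPM in HFD libraries and 102, 98.1 and 93.8 CPM in CD libraries, 1.47-fold higher. Mthfd1l rose by 0.41 ± 0.051 and Shmt2 by 0.30 ± 0.030. The cytosolic enzymes fell. Shmt1 had 10.7, 11.1 and 9.38 CPM in HFD libraries and 15.6, 15.9 and 14.5 CPM in CD libraries (log2 fold change -0.57 ± 0.095), and Mthfd1 had a log2 fold change of -0.26 ± 0.039. Aldh1l1 was also lower in HFD cells (log2 fold change -0.56 ± 0.067).

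Trib3 rose the most among the 32, with 22.98, 21.6 and 24.3 CPM in HFD libraries and 12.6, 12.4 and 10.7 CPM in CD libraries, 1.93-fold higher (adjusted p = 3.15e-15). Ddit3 had 40.97, 39.1 and 42.03 CPM in HFD libraries and 24.3, 25.2 and 25.1 CPM in CD libraries, 1.64-fold higher with no overlap (adjusted p = 1.34e-15). Atf4 had 269, 266 and 254 CPM in HFD libraries and 239.7, 240 and 242 CPM in CD libraries, a small rise of 0.13 ± 0.023 that was not called with total-count scaling (adjusted p = 0.0933) or with its largest transcript alone (adjusted p = 0.39). Chac1 fell to 11.2, 14.8 and 12.8 CPM in HFD libraries, against 17.5, 17.2 and 16.96 CPM in CD libraries (log2 fold change -0.42 ± 0.092, adjusted p = 8.74e-05). Nupr1 rose (0.27 ± 0.063) and Ddit4 fell (-0.17 ± 0.040), and Sesn2 was not called (0.14 ± 0.071, adjusted p = 0.096).

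Asns had 163, 172 and 175 CPM in HFD libraries and 111, 105 and 116 CPM in CD libraries, 1.54-fold higher (adjusted p = 8.81e-27). Got1 rose (0.33 ± 0.040), Got2 fell (-0.39 ± 0.026) and Gpt2 was not called (-0.020 ± 0.068, adjusted p = 0.827). The cytosolic and mitochondrial aspartate transaminases therefore moved in opposite directions. In proline synthesis Pycr1 rose by 0.41 ± 0.076 and Aldh18a1 by 0.28 ± 0.030; with its largest transcript alone Pycr1 was not called (adjusted p = 0.149). Cth averaged 9.41 ± 0.866 CPM in HFD cells and 5.76 ± 0.132 CPM in CD cells, 1.64-fold higher (adjusted p = 9.22e-07), and Cbs was not called (11, 7 and 14 counts in HFD libraries, 7, 9 and 8 counts in CD libraries).

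Slc1a4 and Slc7a5 rose with HFD, by 0.49 ± 0.057 and 0.45 ± 0.027, and Slc3a2 by 0.30 ± 0.026. Slc7a1 rose by 0.18 ± 0.029, not called with its largest transcript alone (adjusted p = 0.463). Slc1a5 fell, with 167, 166 and 169 CPM in HFD libraries and 223, 217 and 218 CPM in CD libraries (1.31-fold lower, adjusted p = 9.77e-23). Slc38a2 was called higher (0.074 ± 0.019), lost without CD mock replicate 2 (adjusted p = 0.0523) and with its largest transcript alone (adjusted p = 0.642), and turned to -0.01 with total-count scaling. Slc7a11 was called higher (0.28 ± 0.093), lost without CD mock replicate 3 (adjusted p = 0.0828) and with total-count scaling (adjusted p = 0.0638). The call of Slc7a11 was also lost in the fit on every gene's largest transcript (adjusted p = 0.0659), although it has only 1 transcript. Vldlr was called higher (0.17 ± 0.052), lost with total-count scaling (adjusted p = 0.131), and its largest transcript alone gave -0.18.

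Macrophage markers differed strongly between the diets. Their sum was 2977 to 3003 CPM in HFD libraries and 637 to 653 CPM in CD libraries, and all 14 were higher in HFD. The 10 mesothelial markers summed to 658 to 670 CPM in HFD libraries and 2536 to 2569 CPM in CD libraries, with all 10 lower, the 9 endothelial markers to 125 to 133 CPM in HFD and 390 to 408 CPM in CD libraries, with all 9 lower, and the adipocyte markers to 907 to 919 CPM in HFD and 1313 to 1337 CPM in CD libraries, with 7 of 9 lower and 1 higher. The fibroblast markers summed to 27290 to 27420 CPM in HFD and 23560 to 23680 CPM in CD libraries, with 4 of 10 higher and 6 lower, and cell cycle markers to 1379 to 1416 CPM in HFD and 1263 to 1273 CPM in CD libraries, with 6 of 10 higher. Their part in the differences above was not tested, and diet cannot be told apart from a different mix of cells in the cultures.

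After adipogenic differentiation, 16 of the 32 genes were higher in Itga5-High than in Itga5-Low cells, 5 were lower and 11 were not called, against 27.1% of all 13468 genes tested called higher and 26.5% lower. The median was 0.12 over the 32 genes and -0.0033 over all genes, and none changed by 1 log2 unit or more, as 2.04% of all genes did upward and 2.08% downward. With total-count scaling the share of calls that were higher, 50.6%, became 41.8%, with 13 of the 32 genes then called higher and 7 lower. The libraries did not overlap for 24 of the 32 genes and for 58.2% of all genes. These cells were counted in a table of their own, so their levels are compared only with each other. Sorted cells before differentiation were not analysed here.

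Mitochondrial folate enzymes carried the largest rises among the synthesis genes. Mthfd1l had 89.6, 90.04 and 90.7 CPM in Itga5-High libraries and 56.8, 54.3 and 53.8 CPM in Itga5-Low libraries, 1.64-fold higher (adjusted p = 8.24e-23). Shmt2 had 136, 131 and 136 CPM in Itga5-High libraries and 92.1, 88.8 and 91.4 CPM in Itga5-Low libraries, 1.49-fold higher (adjusted p = 3.55e-23). Mthfd2 had 57.2, 53.9 and 56.8 CPM in Itga5-High libraries and 42.2, 42.9 and 42.9 CPM in Itga5-Low libraries, 1.31-fold higher. None of these 3 genes' groups overlapped. Aldh1l2, which had the largest change of them with the inhibitor, had 100, 101 and 99.7 CPM in Itga5-High libraries and 101, 100.5 and 96.7 CPM in Itga5-Low libraries, overlapping and not called (adjusted p = 0.835). Shmt1 was not called (0.077 ± 0.13, adjusted p = 0.64), and Aldh1l1 was lower in Itga5-High cells (log2 fold change -0.32 ± 0.049). Mthfd1 was called higher (0.14 ± 0.051), lost in DESeq2's Wald test (adjusted p = 0.0846) and with total-count scaling (adjusted p = 0.117). The call of Mthfd1 was also lost without Itga5-High replicate 1 (0.0555), Itga5-High replicate 2 (0.0647) or Itga5-Low replicate 2 (0.11). In the fit on every gene's largest transcript it was lost too (adjusted p = 0.07), although Mthfd1 has only 1 transcript.

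The serine enzymes differed little between the sorted cells. Phgdh averaged 65.7 ± 3.69 CPM in Itga5-High and 56.1 ± 1.80 CPM in Itga5-Low cells (log2 fold change 0.22 ± 0.044), Psat1 rose by 0.13 ± 0.028, and Psph was not called (adjusted p = 0.19). Aldh18a1 rose by 0.20 ± 0.030, with an adjusted p of 0.0627 for its largest transcript alone, and Pycr1 was not called (-0.069 ± 0.063, adjusted p = 0.369). Asns rose by 0.11 ± 0.034, not called with total-count scaling (adjusted p = 0.0935), Got1 rose by 0.19 ± 0.045, and Gpt2 and Got2 were not called. Gpt2 was called lower with total-count scaling (-0.16, adjusted p = 0.0317) and without Itga5-Low replicate 3 (-0.18, adjusted p = 0.0219).

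Atf4 had 242, 242 and 241 CPM in Itga5-High libraries and 178, 188 and 186 CPM in Itga5-Low libraries, 1.31-fold higher (log2 fold change 0.39 ± 0.022, adjusted p = 8.07e-22). That was a larger log2 fold change than the 0.30 of TGF-b1 against mock cells, and several genes that rose there were not called or were lower here. Trib3 was not called (-0.14 ± 0.075, adjusted p = 0.121), nor were Slc7a5 (0.055 ± 0.038) and Slc7a11 (0.18 ± 0.14). With total-count scaling Trib3 was called lower (-0.18, adjusted p = 0.0415). Cth had 4.07, 4.72 and 4.80 CPM in Itga5-High libraries and 7.37, 7.87 and 7.47 CPM in Itga5-Low libraries, 1.69-fold lower (adjusted p = 2.35e-06). Chac1 averaged 5.91 ± 0.455 CPM in Itga5-High and 3.54 ± 0.262 CPM in Itga5-Low cells, 1.66-fold higher (adjusted p = 3.73e-05). Ddit4 rose (0.23 ± 0.036) and Sesn2 fell (-0.31 ± 0.055), and Ddit3 was not called (adjusted p = 0.0653), except without Itga5-High replicate 1, where it was higher (0.16, adjusted p = 0.0396). Nupr1 was called higher (0.11 ± 0.042), lost in DESeq2's Wald test (adjusted p = 0.0857) and with total-count scaling (adjusted p = 0.167). The call of Nupr1 was also lost without Itga5-High replicate 1 (0.0613), Itga5-High replicate 2 (0.0625) or Itga5-Low replicate 2 (0.11). In the fit on every gene's largest transcript it was lost too (adjusted p = 0.0603), although Nupr1 has only 1 transcript.

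Slc1a5 had 467, 476 and 477 CPM in Itga5-High libraries and 689, 684 and 682 CPM in Itga5-Low libraries, 1.45-fold lower (log2 fold change -0.53 ± 0.014, adjusted p = 9.74e-37). Slc1a4 (-0.37 ± 0.049) and Slc38a2 (-0.16 ± 0.021) fell, so the 3 sodium-dependent neutral amino acid carriers of the list were all lower in Itga5-High cells. Slc7a1 rose by 0.34 ± 0.045 and Slc3a2 by 0.23 ± 0.026. Vldlr rose too, with 106, 108 and 106 CPM in Itga5-High libraries and 86.7, 86.5 and 86.7 CPM in Itga5-Low libraries (log2 fold change 0.29 ± 0.032), not called with its largest transcript alone (adjusted p = 0.0948). Cbs was not called (11, 9 and 16 counts in Itga5-High libraries, 20, 20 and 19 counts in Itga5-Low libraries).

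Cell cycle markers summed to 1072 to 1081 CPM in Itga5-High libraries and 517 to 526 CPM in Itga5-Low libraries, with all 10 higher. Adipocyte markers summed to 6903 to 6926 CPM in Itga5-High and 7848 to 7871 CPM in Itga5-Low libraries, with 6 of 9 lower and 1 higher. Fibroblast markers summed to 52790 to 53180 CPM in Itga5-High and 50550 to 50830 CPM in Itga5-Low libraries, with 3 of 10 higher and 6 lower. Macrophage markers summed to only 45.3 to 45.8 CPM in Itga5-High and 23.6 to 24.9 CPM in Itga5-Low libraries, mesothelial markers to 101 to 104 CPM in Itga5-High and 42.1 to 45.2 CPM in Itga5-Low libraries, and endothelial markers to 26.3 to 27.7 CPM in Itga5-High and 29.5 to 30.1 CPM in Itga5-Low libraries. Of these, 2 of 5 macrophage, 1 of 2 mesothelial and 1 of 7 endothelial markers that passed the filter were higher and 1 endothelial marker was lower. Only 12 of 14 macrophage and 6 of 10 mesothelial markers were among the genes counted in these cells. Most of the mesothelial sum was Krt19, with 99.3 CPM in Itga5-High and 40.1 CPM in Itga5-Low cells. The largest part of the macrophage sum was Csf1r, with 29.5 and 9.54 CPM in the same order. The part of all these markers in the results was not tested.

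Neighbouring pathways were counted as whole lists. Over all genes 33.5% were higher and 34.3% lower with TGF-b1, and 41.5% higher and 38.2% lower with SB431542 added. With HFD these shares were 27.2% and 26.8%, and in Itga5-High cells 27.1% and 26.5%. A count near such a share says nothing particular about its list. The cytosolic tRNA synthetases and related genes known as ATF4 targets moved mostly one way in each comparison: all 13 rose with TGF-b1, all 13 fell with SB431542 added, and 12 of 13 rose with HFD. Nars, the asparaginyl synthetase, had 574 against 337 CPM in TGF-b1 against mock cells (log2 fold change 0.77 ± 0.018), and Gars, the glycyl synthetase, had 137 against 418 CPM in TGF-b1 with SB431542 against TGF-b1 cells (-1.61 ± 0.021). The 8 other synthetases also rose with TGF-b1, all 8 of them, and fell with the inhibitor, all 8, while with HFD 2 rose and 6 were not called. With total-count scaling 7 of the 8 rose with TGF-b1, and with HFD none rose and 4 fell. In Itga5-High cells 9 of the 13 rose and 1 fell, and 6 of the 8 others rose.

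**Figure D5:**
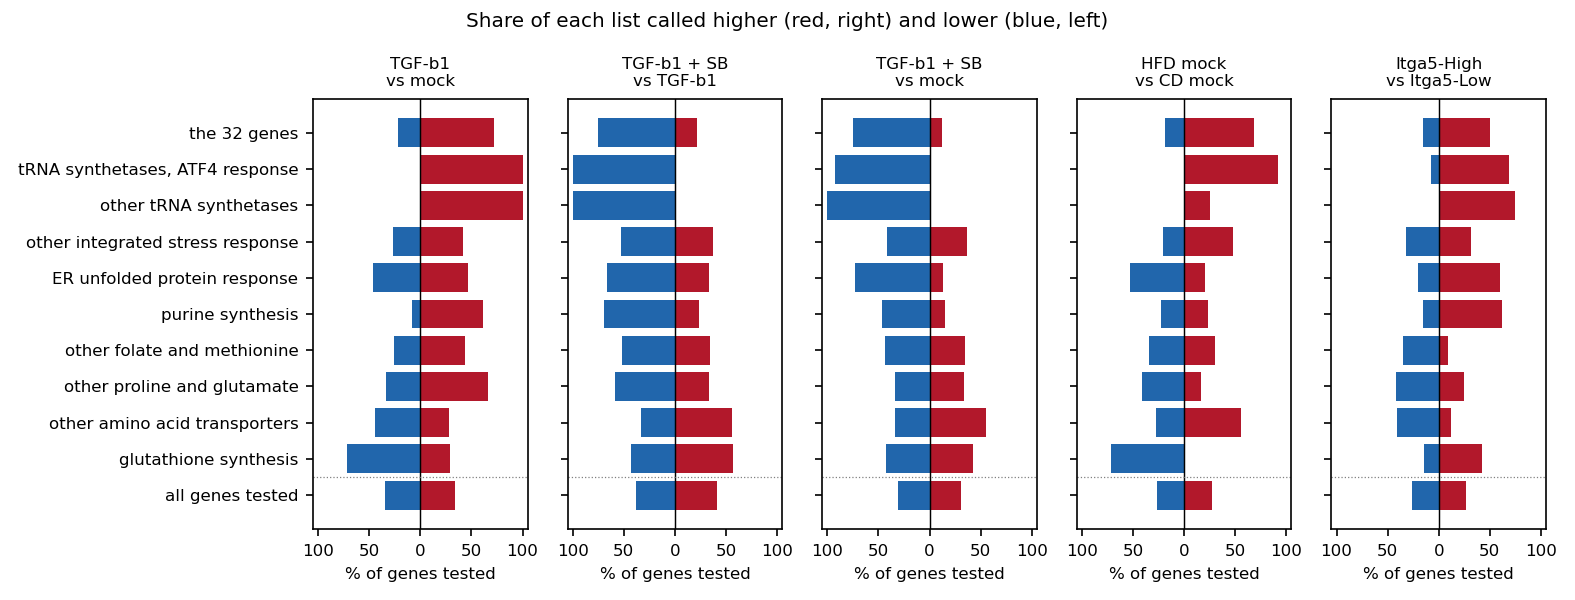
Share of the tested genes of each list drawn, and of all genes, called higher (red, to the right) or lower (blue, to the left) on a horizontal axis in percent, with the lists down the page and 1 panel for each of the 5 comparisons, under TMM scaling. The 2 synthetase lists are entirely red in TGF-b1 against mock and entirely blue in TGF-b1 with SB431542 against TGF-b1, while the list of all genes is nearly symmetric in each comparison.

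The other genes of the integrated stress response gave no such uniform pattern: 8 of 19 rose and 5 fell with TGF-b1, and with the inhibitor added 7 rose and 10 fell. With total-count scaling these became 6 and 8 with TGF-b1, and 9 and 9 with the inhibitor. Atf3, a stress-induced repressor, had 4.63 against 11.5 CPM in TGF-b1 against mock cells (2.48-fold lower) and 24.5 against 11.5 CPM in HFD against CD cells (2.13-fold higher). Gdf15, a secreted stress cytokine, had 91.3 against 17.6 CPM in TGF-b1 with SB431542 against TGF-b1 cells (5.19-fold higher) and 45.6 against 17.1 CPM in HFD against CD cells (2.65-fold higher). The direction of Gdf15 with the inhibitor was thus opposite to that of Trib3 and Asns. Stc2, a secreted glycoprotein induced by ATF4, had 12.7 against 5.83 CPM in TGF-b1 against mock cells (2.17-fold higher). Of 15 genes of the endoplasmic reticulum unfolded protein response, 7 rose and 7 fell with TGF-b1, 5 rose and 10 fell with the inhibitor added, 3 rose and 8 fell with HFD, and 9 rose and 3 fell in Itga5-High cells. With total-count scaling 5 of these rose and 8 fell with TGF-b1. Herpud1 had 70.3 against 49.1 CPM in TGF-b1 against mock cells (log2 fold change 0.52 ± 0.047), and Creld2 had 48.6 against 99.4 CPM in TGF-b1 with SB431542 against TGF-b1 cells (-1.02 ± 0.041).

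In a list of glycolysis and mitochondrial stress genes, all 9 rose with TGF-b1 and all 9 fell with the inhibitor added. Eno1, enolase, had 990.1 against 582 CPM in TGF-b1 against mock cells (log2 fold change 0.76 ± 0.016), and the mitochondrial chaperone Hspd1 had 647 against 373 CPM in TGF-b1 against mock cells (0.80 ± 0.017). With HFD 6 of the 9 rose and 3 fell, and in Itga5-High cells 8 rose, among them Gapdh with 185 against 126 CPM in Itga5-High against Itga5-Low cells. Of 13 purine synthesis genes, users of the folate carbon, 8 rose and 1 fell with TGF-b1, and 9 fell and 3 rose with the inhibitor added. Pfas had 48.5 against 32.2 CPM in TGF-b1 against mock cells and Atic 102 against 190.2 CPM in TGF-b1 with SB431542 against TGF-b1 cells. In Itga5-High cells 8 of the 13 rose and 2 fell, and Tyms, thymidylate synthase, was higher (30.7 against 16.9 CPM in Itga5-High against Itga5-Low cells), in the libraries whose cell cycle markers were also higher.

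The other folate, methionine and glycine cleavage genes were mixed: 10 of 23 rose and 6 fell with TGF-b1, and 8 rose and 12 fell with the inhibitor added. With total-count scaling these became 6 and 8 with TGF-b1 and 11 and 9 with the inhibitor. Gcsh, a carrier protein of glycine cleavage, had 76.02 against 41.9 CPM in TGF-b1 against mock cells, and Gldc, its decarboxylase, had 13.1 against 4.99 CPM in TGF-b1 with SB431542 against TGF-b1 cells. In proline and glutamate metabolism 8 of 12 genes rose and 4 fell with TGF-b1, and with total-count scaling 5 rose and 4 fell. Odc1, the ornithine decarboxylase of polyamine synthesis, had 549 against 222 CPM in TGF-b1 against mock cells (2.47-fold higher) and 118 against 549 CPM in TGF-b1 with SB431542 against TGF-b1 cells (4.66-fold lower). Glul, glutamine synthetase, went the other way, with 194 against 37.6 CPM in TGF-b1 with SB431542 against TGF-b1 cells (5.18-fold higher). Ass1, argininosuccinate synthase, had 50.8 against 19.2 CPM in TGF-b1 against mock cells (2.69-fold higher).

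Of 18 other amino acid carriers, 5 rose and 8 fell with TGF-b1, and 10 rose and 6 fell with the inhibitor added. Slc7a3, a cationic amino acid carrier, had 17.9 against 3.53 CPM in TGF-b1 against mock cells (5.08-fold higher, adjusted p = 1.07e-24) and 0.823 against 17.9 CPM in TGF-b1 with SB431542 against TGF-b1 cells (21.7-fold lower). Slc43a2, a neutral amino acid carrier, had 74.7 against 10.2 CPM in TGF-b1 with SB431542 against TGF-b1 cells (7.33-fold higher). Slc7a8, another partner of Slc3a2, had 43.3 against 11.8 CPM in HFD against CD cells (3.66-fold higher). Of 7 glutathione genes 5 fell and 2 rose with TGF-b1, and Gsr, glutathione reductase, had 45.1 against 83.5 CPM in HFD against CD cells (1.85-fold lower). In Itga5-High cells Slc7a2, a cationic amino acid carrier, had 24.7 against 64.99 CPM in Itga5-High against Itga5-Low cells (2.63-fold lower).

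Split by the promoter element, the 9 genes with a match had a median log2 fold change of 0.74 with TGF-b1 (7 higher, 2 lower) and the 19 genes without one 0.37 (13 higher, 4 lower, 2 not called). In TGF-b1 with SB431542 against TGF-b1 cells the medians were -1.45 with a match and -0.65 without. Against mock cells the order turned, with -0.35 with a match and -0.44 without. With HFD they were 0.33 and 0.18, and in Itga5-High cells 0.11 and 0.14. The 2 genes with a match that fell with TGF-b1 were Chac1 and Vldlr. Aldh1l2, Slc7a5, Slc1a5 and Cth were not among the promoters analysed here, and 3 of these 4 rose with TGF-b1. The median of these 4 was 1.02 with TGF-b1 and -2.68 in TGF-b1 with SB431542 against TGF-b1 cells, further from 0 than that of the genes with a match. The split is a description of 28 genes and carries no test.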

How the data were processed

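Per the labels, mRNA was purified from total RNA and sequenced. Per the submitters' processing notes, fastp, STAR and featureCounts were used with the mm10 build; their versions and any use of strand were not stated in those notes. The authors deposited estimated counts per RefSeq transcript, with transcript lengths, in 2 tables (32709 transcripts of undifferentiated and 29641 of differentiated cells); many are not whole numbers, and the rule for dividing reads between transcripts is unknown. Counts were summed by symbol and rounded to whole numbers. Genes passing edgeR's filterByExpr (14078 and 13468) were fitted table by table (R 4.3.3, edgeR 4.0.16, TMM scaling, 1 coefficient per group, all groups of a table sharing the spread), with the dispersion kept at 1e-04 or above, which raised it for 3780 and 1746 genes. SE is the absolute log2 fold change divided by the square root of F. CPM uses the TMM-scaled library sizes. Levels per length are each transcript's count divided by its length, scaled to TPM and summed by symbol.

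Members and lists were chosen with earlier results of these data known. All 32 members were named. From each neighbouring list the called genes with the largest change were eligible, at most 2 per list and comparison, given 10 CPM or more in whichever group was higher; Aldh1l1 is followed through all comparisons beside its relative. Promoters shown are those of called members with an element and the largest TGF-b1 changes, at most 6. Alternatives were DESeq2 1.42.0 (its size factors and its Wald test), total counts, no filter, no dispersion floor, the replicate number as a block, only the 2 groups compared, the largest transcript only, and each library left out. The model was tested on simulated data. Same-numbered libraries of different groups did not deviate together (correlations of -0.039 to 0.031 over 21 pairs), so the replicate numbers were not used to pair them.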

Additional observations from a re-analysis of the deposited data

How the results depend on the processing

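No count of called members moved by over 1.5 times with DESeq2 size factors, DESeq2's Wald test, no filter, no dispersion floor, only the 2 groups compared, or a library left out. The replicate block changed no call: 23 members rose with TGF-b1 with and without it. Whether same-numbered libraries share an origin is not known: replicates differed by little more than counting noise, so a shared deviation could go unseen. With total counts the genes called higher in TGF-b1 against mock numbered 3079, against 4715, and those lower in TGF-b1 with SB431542 against TGF-b1 3452, against 5378. With the largest transcript alone, 2 members, against 4, were higher in TGF-b1 with SB431542 against mock, and in Itga5-High against Itga5-Low 2332 genes, against 3653, were higher and 2112, against 3572, lower. That fit was redone over the largest transcripts of all genes, so genes with a single transcript could change call as well.

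Total counts reversed the log2 fold change of Got2 in TGF-b1 with SB431542 against TGF-b1 (0.20), of Shmt1 (0.092), Chac1 (0.053) and Slc38a2 (0.10) in TGF-b1 with SB431542 against mock, of Phgdh (-0.066) and Slc38a2 (-0.01) in HFD against CD, and of Aldh1l2 (-0.032) and Got2 (-0.004) in Itga5-High against Itga5-Low. The largest transcript alone reversed Ddit3 in TGF-b1 against mock (-0.024), Vldlr (-0.18), Farsb (-0.28) and Slc7a7 (-0.048) in HFD against CD, and Ddit3 in Itga5-High against Itga5-Low (-0.052). Leaving out 1 library moved uncalled values across 0: in TGF-b1 with SB431542 against mock Shmt1 ranged from -0.059 to 0.02, Slc38a2 from -0.037 to 0.002 and Chac1 from -0.16 to 0.023, in HFD against CD Gpt2 from -0.053 to 0.032, in TGF-b1 with SB431542 against TGF-b1 Ddit3 from -0.035 to 0.088, and in Itga5-High against Itga5-Low Shmt1 from -0.046 to 0.15 and Aldh1l2 from -0.011 to 0.02. The cause was not tested. Total counts differ from TMM by 1 factor per library, which moves all genes alike. Depth limits Cbs, and Cth with the inhibitor, most.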

Other observations

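Ggt5, a gamma-glutamyl transferase of glutathione breakdown, changed the most among the neighbouring lists. It had 0.898 against 25.8 CPM in TGF-b1 against mock cells (log2 fold change -4.78 ± 0.14, adjusted p = 4.03e-38 in edgeR's quasi-likelihood test) and 66.5 against 0.898 CPM in TGF-b1 with SB431542 against TGF-b1 cells (6.15 ± 0.11). It was also lower in Itga5-High than in Itga5-Low cells, with 52.2 against 72.95 CPM. Ahcy, which clears S-adenosylhomocysteine, had 33.1 against 66.9 CPM in HFD against CD cells (2.02-fold lower) and 39.9 against 66.9 CPM in TGF-b1 with SB431542 against mock cells (1.68-fold lower). Aldh4a1, of proline breakdown, had 33.4 against 58.1 CPM in Itga5-High against Itga5-Low cells (1.74-fold lower).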
